A study of Homo sapiens with 5 samples.

Results

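The genes described here are 9 genes of the bone morphogenetic protein (BMP) and transforming growth factor beta (TGF-beta) families, taken by symbol from the count tables: BMP4, SMAD6, SMAD7, SKIL, TGFBI, ID1, ID2, ID3 and ID4. All 9 were listed in each of the 5 libraries, and they are 9 of the 15028 human genes that were listed in every library and had at least 1 count in 10 or more wells. The cells are from SW480, a long-established line of human colorectal cancer, and carried GFP when they were injected into zebrafish larvae. At 1 and 4 days post injection (dpi) a pool of tumors was dissociated, and live (DAPI-negative) GFP-positive cells were sorted singly into plates of 384 wells for SORT-seq, which counts RNA molecules per gene and well by unique molecular identifiers (UMIs). Libraries 6, 7 and 8 are the 3 plates of 1 dpi and libraries 10 and 11 are the 2 plates of 4 dpi. Whether plates from the same day hold cells of separate tumor pools is not given in the sources, so the spread between libraries and the p-values may cover technical variation only.

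A well was kept as a cell if over 2000 genes had a UMI there and mitochondrial UMIs were under 25%. Such cells numbered 228, 142 and 163 for 1 dpi (libraries 6, 7 and 8) and 132 and 161 for 4 dpi (10 and 11), or 826 in all. They held 7503665, 5376698, 4781448, 3961242 and 3789632 UMIs in the same order, and the median cell had 30874, 36197, 25938, 26120 and 18823 UMIs. Library 11 was the shallowest per cell, and the levels below are therefore scaled to each library's total. All plates use the same well barcodes, and pairs of libraries shared between 58 and 122 barcodes among cells with at least 5000 UMIs. Cells with the same barcode in different libraries were no more alike than others, with a median correlation across genes of 0.401 to 0.427 for the same barcode and 0.409 to 0.427 for different ones.

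Markers of cell types were summed to see what the plates held. Of 11 colorectal epithelial markers 11 had UMIs, and their sum was 4690, 5425, 5751, 4706 and 4902 CPM (UMIs scaled to the library's total) in libraries 6, 7, 8, 10 and 11, with KRT8 as the most abundant gene. KRT20 and CDX1, markers of differentiated colon cells, had 9 and 1 UMIs over all cells. Of 7 fibroblast markers 6 had UMIs, with sums of 23.3, 26.4, 27.4, 44.7 and 33.2 CPM, of which LUM gave 597 of 751 UMIs while COL1A2 was at 0 and PDGFRA had 1. Endothelial markers had 50 UMIs in all, 26 of them from PECAM1, with sums of 2.27, 1.49, 1.88, 2.02 and 2.11 CPM, and leukocyte markers had 241, of which CD68 gave the most with 81, with sums of 10.5, 11.9, 9.62, 7.57 and 5.81 CPM. The part of such cells in the values below was not tested. COL1A1 stands both in the fibroblast list and among the TGF-beta targets below.

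BMPs, TGF-beta and activins are secreted ligands that bind pairs of serine/threonine kinase receptors, which phosphorylate SMAD1, SMAD5 and SMAD9 in the BMP branch and SMAD2 and SMAD3 in the TGF-beta and activin branch. Phosphorylated SMADs enter the nucleus with SMAD4 and act on target genes, among them ID genes and the inhibitors SMAD6, SMAD7 and SKIL, which feed back on the pathway. In the intestine BMP signals rise from the crypt towards the differentiated epithelium and limit stem cell renewal, and parts of the TGF-beta branch are often lost in colorectal cancer.

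Between 1 and 4 dpi, ID1, SKIL and SMAD7 fell and TGFBI and BMP4 rose, while ID2 and ID3 did not pass the test. ID4 was also called higher, but that call carries the choice of genes tested, as given below. UMIs were summed over the cells of a library and compared with the edgeR quasi-likelihood test at an adjusted p of 0.05. The test called 27.6% of the 12610 genes that passed the low-count filter, 13.4% higher and 14.2% lower at 4 dpi. Of the 9 genes 8 passed that filter, SMAD6 did not, and ID4 passed it only through the 4 dpi libraries, where it was higher. For ID1, ID2, ID4, SKIL and TGFBI all libraries of 1 time point lay on the same side of the other, as they did for 54.7% of all tested genes. The 9 genes are no random sample of the rest, so the count of calls among them is not used as a result. Values below are CPM with TMM scaling, each gene is compared only with itself, and in summed counts fewer cells that express a gene cannot be told apart from less RNA per cell.

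BMP4 encodes the secreted BMP ligand of the set. Its level was 336, 291 and 382 CPM in libraries 6, 7 and 8 and 478 and 372 in those of 4 dpi (10 and 11). Library 10 was the highest, and library 11 lay below library 8, so that the time points overlapped. The means were 336 ± 45.8 (SD, n = 3) and 425 ± 75.3 (SD, n = 2), and the log2 change was 0.34 (SE 0.12, edgeR adjusted p = 0.0458). This call did not hold with DESeq2 (adjusted p = 0.0520), without the low-count filter (0.0549), or without library 6 (0.0738), library 7 (0.158) or library 10 (log2 change 0.15, adjusted p = 0.463). It was also lost in cycling-high cells (0.17, 0.357), in cells without HES5 (0.16, 0.489) and in the low cells of the immediate early and Notch splits defined below. In all, 9 of 21 alternatives lost the BMP4 call, and its adjusted p ranged from 0.00153 to 0.796.

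SMAD6, an inhibitory SMAD that acts mainly on BMP receptors, was near the limit of detection. Libraries 6, 7 and 8 held 13, 4 and 8 of its UMIs and libraries 10 and 11 held 5 and 7, which is 1.74, 0.759 and 1.68 against 1.26 and 1.82 CPM. The groups overlapped, and the ratio of the summed UMIs was 1.09 with an exact 95% interval of 0.501 to 2.26 that covers counting error only. SMAD7, the inhibitory SMAD that targets TGF-beta receptors for degradation, stood at 23.5, 43.7 and 37.6 CPM at 1 dpi and 24.2 and 19.3 at 4 dpi. Library 6 lay with the 4 dpi libraries and below library 10. The means were 34.9 ± 10.3 (SD, n = 3) and 21.7 ± 3.46 (SD, n = 2), and SMAD7 fell by 0.66 on the log2 scale (SE 0.23, edgeR adjusted p = 0.0386). It was no longer called when library 7 (-0.46, adjusted p = 0.149), library 8 (-0.60, 0.103) or library 11 (-0.51, 0.187) was left out, with cells thinned to 5000 UMIs (-0.35, 0.579), under a mitochondrial maximum of 15% (-0.52, 0.158), in cycling-low (-0.34, 0.394) or cycling-high cells (-0.76, 0.101), or in cells without HES5 (-0.21, 0.599). Of 21 alternatives, 10 kept the SMAD7 call, 10 lost it and 1 turned its sign, with an adjusted p from 0.00189 to 0.827.

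SKIL encodes SnoN, a corepressor that binds SMAD complexes and is itself induced by TGF-beta. It was measured at 95.5, 114 and 104 CPM at 1 dpi and at 65.2 and 77.8 at 4 dpi. Each library of 1 dpi was above each of 4 dpi, with means of 105 ± 9.40 (SD, n = 3) and 71.5 ± 8.95 (SD, n = 2). SKIL fell by 0.55 on the log2 scale (SE 0.12, edgeR adjusted p = 0.00369), and 16 of 21 alternatives kept the call. It was lost with cells thinned to 5000 UMIs (-0.57, adjusted p = 0.0684), in cycling-low cells (-0.48, 0.0642), in cells without HES5 (-0.25, 0.230) and in the low cells of the immediate early and Notch splits given below, in a range of 0.00180 to 0.393. TGFBI, a secreted matrix protein named for its induction by TGF-beta, moved the other way. Its level was 17.3, 20.9 and 16.4 CPM at 1 dpi and 29.9 and 26.3 at 4 dpi, with each library of 4 dpi above each of 1 dpi. The log2 change was 0.63 (SE 0.17, edgeR adjusted p = 0.0122), from 18.2 ± 2.39 (SD, n = 3) to 28.1 ± 2.59 (SD, n = 2). Without library 10 the log2 change was 0.53 with an adjusted p of 0.0985, under a mitochondrial maximum of 15% it was 0.47 (0.124), with thinned cells 0.70 (0.211), in cycling-low cells 0.36 (0.434) and in cells without HES5 0.37 (0.207). With the low cells of the immediate early and Notch splits, 7 of 21 alternatives lost the TGFBI call, and the lowest adjusted p was 0.00717.

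ID proteins lack a DNA-binding region and hold basic helix-loop-helix (bHLH) factors away from DNA, and ID genes are direct targets of BMP SMADs in many cells. ID1 stood at 325, 298 and 239 CPM in libraries 6, 7 and 8 and at 89.8 and 70.5 at 4 dpi. All 3 libraries of 1 dpi were far above both libraries of 4 dpi, and the gap between the groups was wider than the spread within either. ID1 fell by 1.84 on the log2 scale (SE 0.14, edgeR adjusted p = 3.39e-07), a ratio of mean levels of 3.58, from 287 ± 44.3 (SD, n = 3) to 80.2 ± 13.6 (SD, n = 2). Without any 1 library the change lay between -2.03 and -1.68 with an adjusted p of at most 9.19e-07. Of 21 alternatives 2 lost the ID1 call, in the low cells of the immediate early and Notch splits given below. Over all of them the change ranged from -2.39 to -0.30, with an adjusted p up to 0.273.

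ID2, the member of the family best known in lymphoid cells, did not follow ID1. It was at 212, 266 and 222 CPM at 1 dpi and at 184 and 208 at 4 dpi, so that both 4 dpi libraries were below the 3 of 1 dpi, the higher of them only just. The log2 change was -0.25 (SE 0.11, edgeR adjusted p = 0.104), from 233 ± 29.0 (SD, n = 3) to 196 ± 17.0 (SD, n = 2). Under a mitochondrial maximum of 15% its sign turned (0.02, adjusted p = 0.918), without a maximum it was called (-0.31, 0.0390), and the adjusted p ranged from 0.0162 to 0.948 over the alternatives. ID3 was low, at 7.22, 7.78 and 9.45 CPM against 6.54 and 7.55, with overlapping groups and a log2 change of -0.20 (SE 0.27, edgeR adjusted p = 0.625).

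ID4 was the sparsest of the ID genes. Its UMIs numbered 8, 14 and 2 in the plates of 1 dpi and 17 and 21 in those of 4 dpi, or 1.07, 2.66 and 0.420 against 4.28 and 5.47 CPM. Both libraries of 4 dpi were above those of 1 dpi, and the ratio of the summed UMIs was 3.61 with an exact 95% interval of 2.11 to 6.29 for counting error only. The log2 change was 1.80 (SE 0.51, edgeR adjusted p = 0.0154), and without library 11 it was 1.62 with an adjusted p of 0.105, in a range of 8.17e-04 to 0.263 over the alternatives. Since ID4 entered the test only through the libraries in which it was high, its call carries that choice.

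**Figure D1:**
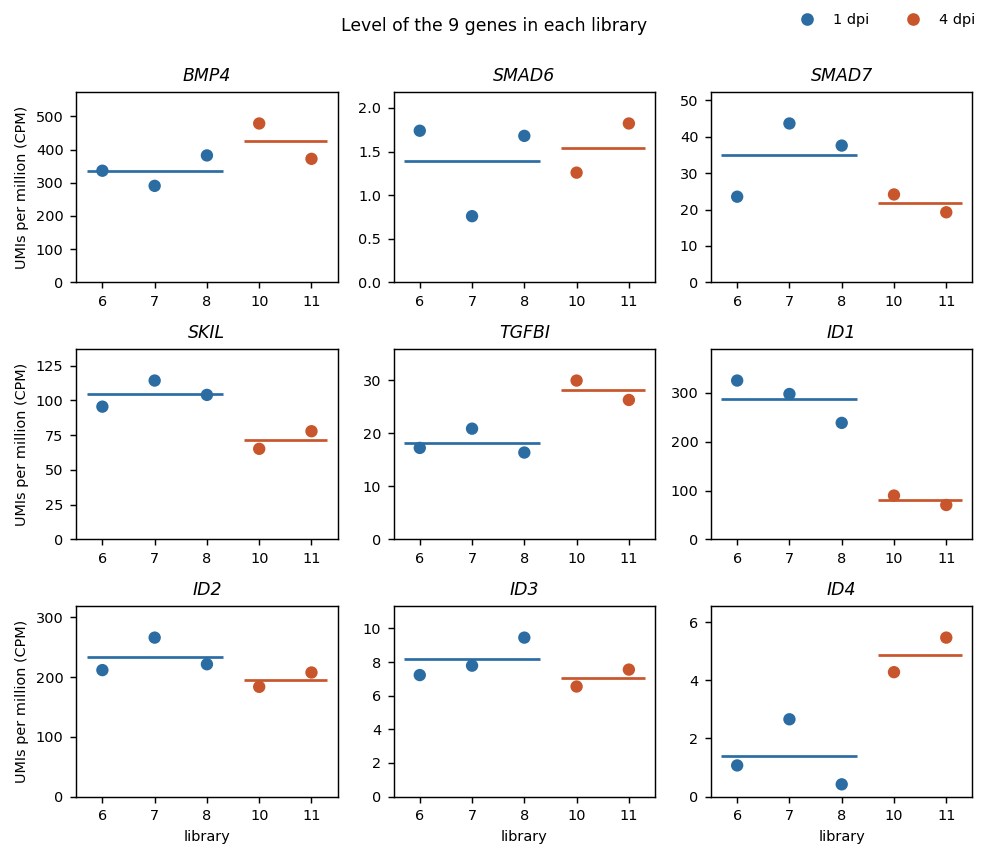
Level (CPM, linear axis from 0) of each of the 9 genes by library, with points for libraries, bars for the mean of a time point, blue for 1 dpi and orange for 4 dpi. ID1 dropped from between 239 and 325 CPM to 89.8 and 70.5, while ID2 stayed between 184 and 266.

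The promoter windows of ID1, ID2, ID3, SMAD7 and SKIL are given because these 5 genes were higher together in groups of cells described further on, and they were chosen after those values had been seen. The windows are the 250 bases before the first annotated start of each gene, from RefSeq on GRCh38.p14, read 5′ to 3′ on the gene's own strand, and RefSeq promoters were matched for 9 of 9 genes. They lie at chr20:31605039-31605288 (plus strand) for ID1, chr2:8681806-8682055 (plus) for ID2, chr1:23559502-23559751 (minus) for ID3, chr18:48950966-48951215 (minus) for SMAD7 and chr3:170357465-170357714 (plus) for SKIL. Each ends 1 base before the first exon, upstream of the gene. Capitals mark matches to any of the 10 motifs named after the sequences, on either strand.
ID1: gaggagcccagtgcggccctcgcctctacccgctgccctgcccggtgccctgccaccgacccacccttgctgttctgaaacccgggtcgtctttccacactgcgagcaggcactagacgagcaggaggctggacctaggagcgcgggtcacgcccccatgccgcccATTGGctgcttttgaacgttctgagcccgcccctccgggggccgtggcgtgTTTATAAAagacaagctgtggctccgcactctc
ID2: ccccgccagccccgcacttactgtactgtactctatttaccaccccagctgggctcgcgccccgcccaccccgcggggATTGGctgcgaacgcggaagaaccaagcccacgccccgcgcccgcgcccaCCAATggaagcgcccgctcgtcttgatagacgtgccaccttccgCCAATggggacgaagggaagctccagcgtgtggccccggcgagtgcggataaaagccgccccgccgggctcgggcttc
ID3: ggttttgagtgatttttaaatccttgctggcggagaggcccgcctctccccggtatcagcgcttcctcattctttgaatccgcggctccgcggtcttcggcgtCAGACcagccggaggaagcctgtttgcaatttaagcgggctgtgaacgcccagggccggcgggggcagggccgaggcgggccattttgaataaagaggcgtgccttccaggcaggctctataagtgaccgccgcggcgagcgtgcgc
SMAD7: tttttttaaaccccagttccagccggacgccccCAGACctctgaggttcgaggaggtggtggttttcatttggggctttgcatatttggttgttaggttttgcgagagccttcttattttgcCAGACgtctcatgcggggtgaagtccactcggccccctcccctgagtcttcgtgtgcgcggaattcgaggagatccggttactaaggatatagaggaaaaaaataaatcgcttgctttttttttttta
SKIL: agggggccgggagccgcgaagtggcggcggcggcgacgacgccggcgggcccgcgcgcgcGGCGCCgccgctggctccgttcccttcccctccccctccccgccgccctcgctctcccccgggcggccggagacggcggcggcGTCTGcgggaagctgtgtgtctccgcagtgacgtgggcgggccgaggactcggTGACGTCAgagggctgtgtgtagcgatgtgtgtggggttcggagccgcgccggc

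The motifs were searched on both strands in the same 250-base window of all 35116 promoters. The GC-rich SMAD element GGCGCC was in 16.4% of promoters and here in that of SKIL, and the SMAD box CAGAC was in 38% and here in those of ID3, SMAD7 (2 matches) and SKIL. The SMAD palindrome GTCTAGAC, which shares the letters AGAC with CAGAC but does not contain it, was in 0.182% of promoters and in none of these 5, though the promoter of SMAD6 held it. The cyclic AMP element TGACGTCA was in 1.65% and here in that of SKIL. The RBPJ element TGGGAA (20.8%), the AP-1 element TGACTCA (4.2%), the EGR element GCGTGGGCG (0.72%) and the E-box CACCTG (17.5%) had no match in the 5 windows. SMAD7 has 3 annotated promoters, of which only the window most upstream is printed, and that of promoter 3 held 2 matches to TGGGAA and 1 to CACCTG, while that of promoter 2 held 1 to CAGAC and 1 to TATAAA. The CCAAT box CCAAT (32%) and the TATA box TATAAA (10.7%) were added after the first 8 motifs had been searched: CCAAT had 1 match in ID1 and 3 in ID2, and TATAAA had 2 overlapping matches in ID1. A match describes the letters in the window and says nothing of binding, and no motif was shared by all 5 windows.

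The other genes of the pathway were described from lists by role. Of 107 pathway genes other than the 9, 66 were tested between the time points, 10 were higher and 19 lower at 4 dpi, and their median log2 change was -0.11 against 0.00 for all 12610 genes. Of these 66, BMP6, IL11, LTBP2 and SMAD9 passed the low-count filter only through the 1 dpi libraries and TCF4 only through the 4 dpi libraries. Counts per list below include the 9 genes where a list holds them, and the share called among all genes was 27.6%.

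Ligands went both ways. Of 5 tested BMP ligands 3 were called higher and 1 lower (median log2 change 0.34), and of 4 TGF-beta and activin ligands 1 was called higher and 1 lower (0.10). BMP2, a ligand close to BMP4, was at 8.16, 11.2 and 9.03 CPM at 1 dpi and at 20.1 and 19.8 at 4 dpi, with no overlap, and rose by 1.09 on the log2 scale (SE 0.21, edgeR adjusted p = 0.00144). It lost that call in 2 of 21 alternatives, in cycling-low cells (0.75, adjusted p = 0.193) and immediate early high cells (0.76, 0.0883), with a lowest adjusted p of 5.86e-04. TGFB1, the main TGF-beta of epithelia, was at 10.0, 18.4 and 17.0 CPM against 6.04 and 7.55, also with no overlap, and fell by 1.13 (SE 0.30, edgeR adjusted p = 0.0101), though without library 10 the value was -0.97 with an adjusted p of 0.0591 (range over the alternatives 0.00150 to 0.148). INHBE, an inhibin beta chain, rose by 0.77 (edgeR adjusted p = 0.00892), with 0.67 (0.0665) without library 10 and -0.13 in the cells low in immediate early genes that are defined below (range 9.23e-04 to 0.884). BMP6 was not called (-1.34, 0.164) on 35 and 6 UMIs.

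Of 12 tested receptors and co-receptors 3 were called higher and 2 lower, with a median log2 change of -0.04, and each of the 5 kept the libraries of the time points apart. The type I receptors TGFBR1 and ACVR1B, for TGF-beta and activin, rose by 0.47 (edgeR adjusted p = 0.00764) and 0.73 (0.0129), and ACVR1C, the activin and NODAL receptor ALK7, fell by 1.31 on the log2 scale (0.00366). The type II receptor TGFBR2 fell by 0.57 (edgeR adjusted p = 0.0186), and the co-receptor TGFBR3 rose by 0.87 (0.00572). The BMP receptors BMPR1A (0.45), ACVR1 (-0.56) and BMPR2 (-0.12), the activin receptors ACVR2A (-0.15) and ACVR2B (0.43) and the BMP co-receptors RGMA (0.04) and RGMB (-0.50) were not called. Calls lost without 1 library were those of TGFBR2 (without 7, -0.50, 0.0627, and without 11, -0.32, 0.244), TGFBR3 (without 10, 0.68, 0.0864) and ACVR1B (without 11, 0.69, 0.0693), in adjusted p ranges of 0.00338 to 0.244, 0.00341 to 0.190 and 0.00790 to 0.208. Over all alternatives TGFBR2 lost its call in 9 of 21, ACVR1B in 5 of 21 and TGFBR3 in 4 of 21. ACVR1C lost its call in 4 of 20 alternatives (values from -2.70 to -0.80, adjusted p up to 0.149), and TGFBR1 in 2 of 21 (up to 0.185), none of them by leaving out a library.

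Of the 6 signal-transducing SMADs 2 were called, both lower, with a median log2 change of -0.55. SMAD1, of the BMP branch, was at 46.3, 41.6 and 61.5 CPM at 1 dpi and at 29.7 and 30.5 at 4 dpi, with no overlap, and fell by 0.72 on the log2 scale (SE 0.17, edgeR adjusted p = 0.00480). SMAD3, of the TGF-beta branch, fell by 0.47 (0.0218), also with no overlap, and was not called with DESeq2 (0.0711) or without library 8 (-0.41, 0.0714) or library 11 (-0.41, 0.132), in an adjusted p range of 0.00604 to 0.955. SMAD2 (-0.02), SMAD5 (-0.10), the shared partner SMAD4 (-0.62) and SMAD9 (-0.70) were not called. SMAD4 was low, at 6.82, 7.21 and 7.98 CPM at 1 dpi and 5.79 and 3.64 at 4 dpi. SMAD9 was lower still, at 3.61, 3.04 and 3.36 against 1.26 and 2.86. SMAD1 lost its call in 4 of 21 alternatives and turned sign in 1 (adjusted p up to 0.932). In the cells low in immediate early genes SMAD1 and SMAD3 did not fall (0.04 each), and SMAD2 changed sign in 5 alternatives, among them without library 7 (0.05).

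Of 7 extracellular antagonists and latency proteins 3 were called lower, among them LTBP2. This count is not used as a result, since LTBP2 passed the filter only through the 1 dpi libraries, where it was high. Of 15 intracellular regulators, among them SKIL and SMAD7, 8 were called lower and 1 higher (median -0.36). LTBP2, which binds latent TGF-beta in the matrix, had 77 and 12 UMIs at the time points and a log2 change of -1.49 (edgeR adjusted p = 0.0219), a call that carries that choice and was not made with DESeq2 (0.0811) or without library 7 (-1.34, 0.0572), library 10 (-1.47, 0.107) or library 11 (-1.52, 0.0980), in a range of 0.0167 to 0.151. The ubiquitin ligase RNF111, which removes SKIL and SMAD7 protein, fell by 0.73 (edgeR adjusted p = 0.00206, lost in 4 of 21 alternatives, range 9.33e-04 to 0.223, with -0.34 in cells without HES5), and the corepressor TGIF1 rose by 0.47 (0.0137, and 0.0848 without library 10 with a value of 0.42, range 0.00317 to 0.328). SOSTDC1, a BMP and Wnt antagonist, was not called (0.59, 0.175).

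Of 15 TGF-beta targets, among them TGFBI, 2 were called higher and 4 lower, with a median log2 change of 0.01. COL1A1, a collagen chain, was at 1.47, 4.18 and 2.73 CPM at 1 dpi and at 16.6 and 7.03 at 4 dpi and rose by 2.14 (SE 0.41, edgeR adjusted p = 0.00138) on 46 and 93 UMIs, with 1.38 (0.0621) without library 10 (range 9.49e-05 to 0.0621). The part of other cell types in COL1A1 was not tested. Of 9 BMP targets 1 was called higher and 2 lower (median -0.20), and these were ID4, ID1 and SMAD7. The count of those higher is not used as a result, since ID4 passed the filter only through the 4 dpi libraries, where it was high. Of 4 tested bHLH partners of ID proteins 2 were called higher, 1 of them TCF4, so that this count is not used as a result. The E protein gene TCF4 on chromosome 18, which is not the Wnt factor also known by that name, held 7 UMIs in the 1 dpi libraries and 30 in the 4 dpi libraries, a ratio of 9.77 with an exact 95% interval of 4.20 to 26.3 for counting error only, and its log2 change was 3.18 (SE 0.59, edgeR adjusted p = 0.00108). TCF4 entered the test only through the 4 dpi libraries, where it was high, so its call carries that choice. The E protein TCF12 was not called (-0.16, 0.417).

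**Figure D2:**
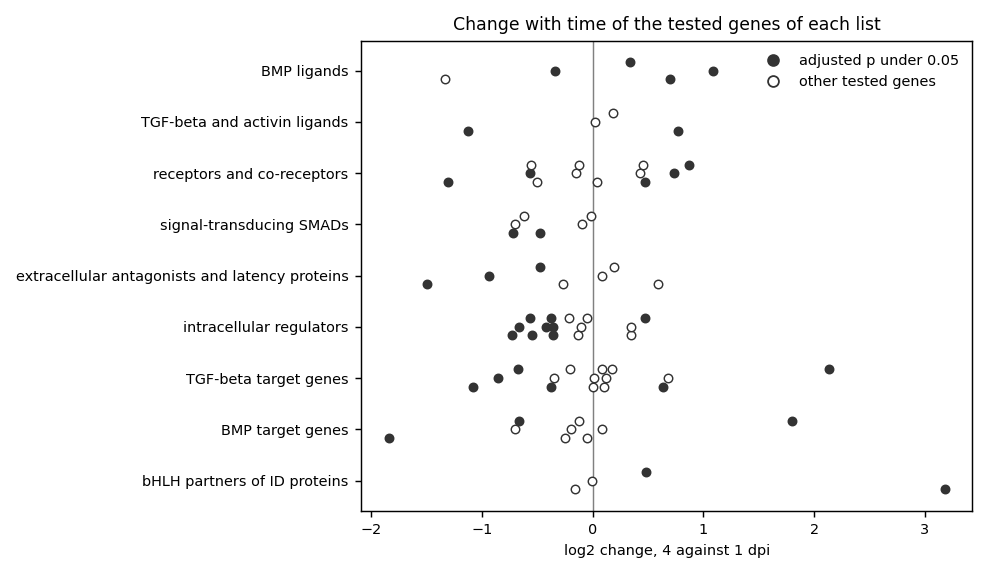
Log2 change between 1 and 4 dpi (horizontal axis) of each tested gene of the 9 lists, with filled circles for an adjusted p under 0.05 and open circles for the rest. Values of BMP targets ran from -1.84 (ID1) to 1.80 (ID4), and 8 of 15 intracellular regulators were called lower.

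Among single cells, the share with at least 1 ID1 UMI was compared after thinning each cell to 10000 UMIs, which kept 193, 126, 141, 118 and 123 cells in libraries 6, 7, 8, 10 and 11. ID1 was found in 57.0%, 53.2% and 56.7% of the cells of 1 dpi and in 37.3% and 40.7% of those of 4 dpi, and without thinning in 76.8%, 80.3%, 70.6%, 61.4% and 51.6%. Both 4 dpi libraries were below the 3 of 1 dpi on either scale. Cells with a UMI also held fewer of them at 4 dpi, with means of 5.10, 4.21 and 3.61 per cell at 1 dpi and 2.11 and 2.56 at 4 dpi at that depth. ID1 was uneven between cells: the tenth of the cells with the most ID1 UMIs held 63.5%, 56.4% and 53.3% of them at 1 dpi and 51.6% and 64.8% at 4 dpi.

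For ID2 the shares at 10000 UMIs were 52.9%, 61.9% and 57.4% at 1 dpi and 52.5% and 58.5% at 4 dpi, and they overlapped (73.2%, 85.2%, 73.0%, 71.2% and 72.0% without thinning). BMP4 was found in 76.7%, 75.4% and 76.6% of cells at 1 dpi and in 88.1% and 84.6% at 4 dpi, without overlap (89.0%, 88.7%, 85.9%, 95.5% and 95.7% without thinning). SKIL was found in 51.8%, 54.8% and 54.6% at 1 dpi and in 38.1% and 51.2% at 4 dpi (75.9%, 84.5%, 74.8%, 68.2% and 60.9% without thinning). Both 4 dpi libraries were below those of 1 dpi for SKIL, library 11 only just so at 10000 UMIs but the lowest without thinning. The other 5 genes were found in fewer cells: over all libraries at 10000 UMIs, SMAD7 in 18.8%, TGFBI in 17.3%, ID3 in 5.71%, ID4 in 2.00% and SMAD6 in 1.57%.

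To see in which cells these genes were high, the cells of each library were divided at that library's median into a high and a low group by the summed UMIs of a gene list, after thinning to 5000 UMIs (815 cells). The lists were 22 immediate early genes such as FOS, JUN and EGR1, which rise within minutes of a stimulus and also during cell handling, 9 Notch effectors such as HES1, HEY1 and NRARP, and 36 cycling genes, of which 35 were present. They hold 0 of the 9 genes and 0 of the other pathway genes. The high and low group of a library were compared with the library as a block. Immediate early high cells had a mean of 38.9, 57.9, 44.1, 40.9 and 42.1 list UMIs per 5000 in libraries 6, 7, 8, 10 and 11, and low cells had 5.36, 6.27, 5.33, 3.52 and 4.13. Notch-high cells had 11.0, 13.3 and 9.04 at 1 dpi but 2.02 and 1.90 at 4 dpi, and Notch-low cells had 0.343, 0.400, 0.363, 0 and 0. At 4 dpi a Notch-high cell is thus one with any UMI of the list, and the Notch groups of the time points are not the same range.

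ID1, ID2, SMAD7 and SKIL were higher in immediate early high cells, and BMP4 was lower. ID3 was also called higher, but its low cells were at 2.00 and 1.19 CPM in libraries 6 and 7. ID3 thus passed the low-count filter only through the high cells, where it was high, and its call carries that choice. The split called 47.6% of 10890 tested genes, 24.1% higher and 23.5% lower, so that a call in this split was common. The 6 calls among 7 tested genes, that of ID3 included, stand beside that share. ID2 went from 85.0, 103, 106, 71.9 and 65.2 CPM in the low cells of libraries 6, 7, 8, 10 and 11 to 320, 417, 328, 287 and 351 in the high cells. Each high group was above every low group, at both time points alike, with a log2 difference of 1.99 (SE 0.11, edgeR adjusted p = 2.02e-07). ID1 went from 94.4, 59.8 and 143 to 525, 517 and 326 CPM at 1 dpi and from 81.1 and 61.4 to 99.4 and 82.5 at 4 dpi. It was higher in 5 of 5 libraries, by much more at 1 dpi than at 4 dpi, with a log2 difference of 1.58 over all libraries (SE 0.34, edgeR adjusted p = 0.00256).

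SMAD7, SKIL and ID3 were also higher, and BMP4 lower, in 5 of 5 libraries. SMAD7 differed by 1.16 on the log2 scale (SE 0.17, edgeR adjusted p = 2.10e-04), from a mean of 17.9 ± 6.22 to 40.3 ± 15.1 CPM (SD, n = 5). SKIL differed by 0.83 (SE 0.11, 9.77e-05), from 64.8 ± 8.25 to 116 ± 30.4, and ID3 by 1.46 (SE 0.39, 0.00913), from 4.36 ± 2.90 to 10.8 ± 2.07. The BMP4 difference was -0.47 (SE 0.11, 0.00361), from 432 ± 61.2 to 320 ± 92.4, and TGFBI did not differ beyond its error (-0.15, SE 0.18, 0.507). The calls of ID1, ID2, SMAD7, SKIL and BMP4 held in each alternative in which the gene was tested. That of ID3 did so too, but it carries the choice of genes tested. SMAD6 and ID4 did not pass the filter. Without the filter edgeR called ID4 higher in immediate early high cells, with 0, 0.792, 0, 0.541 and 0 CPM in the low cells of libraries 6, 7, 8, 10 and 11 and 2.00, 4.38, 0.814, 7.68 and 10.9 in the high cells, higher in 5 of 5. These are few UMIs, ID4 was not called in the other splits without the filter, and SMAD6 was called in none. Immediate early high cells had a median of 16211 to 34593 UMIs and low cells 21722 to 38154, and neither group was the deeper in all libraries.

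The Notch split gave the same directions for these genes, and called 27.8% of 11046 genes, 15.2% higher and 12.6% lower. ID1 went from 95.2, 63.8 and 92.8 CPM in Notch-low cells of libraries 6, 7 and 8 to 616, 529 and 385 in Notch-high cells, and from 75.9 and 59.8 to 116 and 84.6 in libraries 10 and 11. The low cells of all 5 libraries lay between 59.8 and 95.2, and the high cells differed between the time points. The log2 difference was 1.88 (SE 0.30, edgeR adjusted p = 8.03e-04, higher in 5 of 5 libraries). ID2 differed by 1.45 (SE 0.18, 1.38e-04), ID3 by 1.36 (SE 0.32, 0.00789), SMAD7 by 1.08 (SE 0.20, 0.00203) and SKIL by 0.78 (SE 0.13, 0.00110), each higher in 5 of 5 libraries. Notch-low cells had ID3 at 2.68, 3.50 and 3.85 CPM in libraries 6, 7 and 8. ID3 passed the filter only through the Notch-high cells, where it was high, so its call carries that choice. BMP4 was lower in 4 of 5 (-0.42, SE 0.13, 0.0252), and TGFBI was not called (-0.21, SE 0.20, 0.466). Without library 6 the ID3 value was 1.09 with an adjusted p of 0.0581 (range 5.22e-04 to 0.0581). BMP4 was not called without library 6 (-0.36, 0.106), library 7 (-0.39, 0.0885) or library 8 (-0.32, 0.132), with the score at 10000 UMIs (-0.38, 0.0797) or with thinned cells (-0.24, 0.275), in a range of 0.00472 to 0.275.

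The cycling split called 21.6% of 10993 genes, 12.3% higher and 9.26% lower, and 2 of 7 tested genes of the set. SMAD7 was lower in cycling cells in 4 of 5 libraries (log2 difference -0.62, SE 0.17, edgeR adjusted p = 0.0152), and it was not called without library 6 (-0.47, 0.104), library 10 (-0.52, 0.0550) or with thinned cells (-0.77, 0.0910), in a range of 0.00234 to 0.104. ID3 was higher in 5 of 5 libraries (0.78, SE 0.27, 0.0471), with 2.16 CPM in the cycling-low cells of library 10. It passed the filter only through the cycling-high cells, where it was high, so its call carries that choice. Of 8 alternatives only leaving out library 11 kept the ID3 call (0.0457). Its adjusted p was 0.129, 0.0963, 0.0597 and 0.150 without libraries 6, 7, 8 and 10 and reached 0.203 with the score at 10000 UMIs. ID1 was not called (0.25, 0.207), but it was without library 6 (0.47, 0.0155), and its sign turned with the score at 10000 UMIs (-0.08) and with thinned cells (-0.02). BMP4 (0.14, 0.305) was called without library 10 (0.25, 0.0489), and ID2, TGFBI and SKIL were not called in any alternative. Cycling-high cells were the deeper ones, with medians of 22359 to 41232 UMIs against 17126 to 32485.

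**Figure D3:**
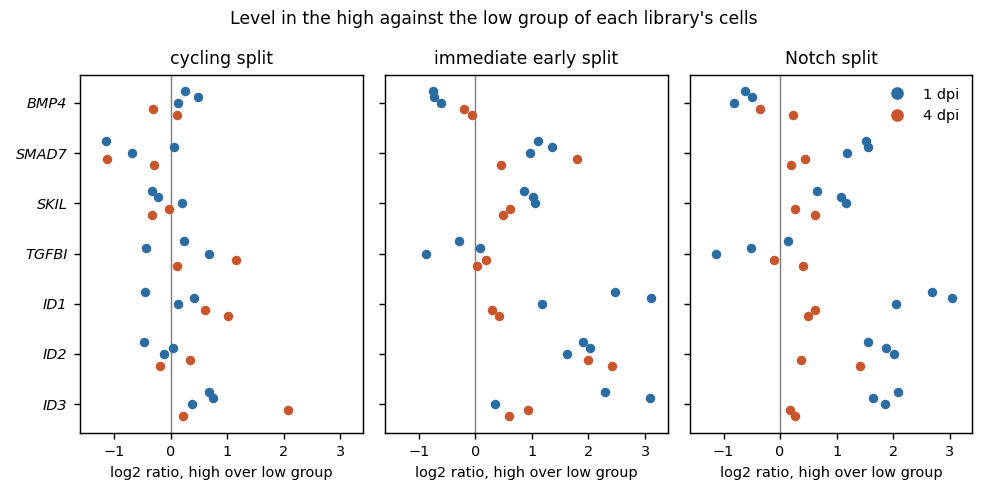
Log2 ratio of CPM in the high over the low group of cells of a library (horizontal axis) for 7 genes and 3 splits, with 1 point per library, blue for 1 dpi and orange for 4 dpi. In the Notch split the ID1 ratios were 2.69, 3.04 and 2.05 at 1 dpi and 0.61 and 0.50 at 4 dpi.

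Whether a split acted differently at the time points was tested by the interaction of the group of cells with time, which called 10.6% of genes for the immediate early split, 3.51% for the Notch split and 0.182% for the cycling split. In the immediate early split, the ID1 difference was smaller at 4 dpi, with an interaction of -1.87 on the log2 scale (SE 0.33, edgeR adjusted p = 6.71e-04), with ratios of 2.47, 3.10 and 1.18 against 0.29 and 0.42. DESeq2 gave a like value (-1.88) with an adjusted p of 0.110, in a range of 1.45e-09 to 0.110. BMP4 had -0.74, -0.73 and -0.61 at 1 dpi and -0.20 and -0.06 at 4 dpi, so that it was lower in immediate early high cells mostly at 1 dpi (interaction 0.56, SE 0.13, edgeR adjusted p = 0.00532). Without library 11 this was 0.49 with an adjusted p of 0.0747, and with thinned cells 0.56 with 0.0984 (range 0.00254 to 0.0984). ID2 had ratios of 1.91, 2.02 and 1.63 against 1.99 and 2.42 and no called interaction (0.35, SE 0.17, 0.197). ID3 was called only without library 8 (-2.12, 0.0482) and otherwise not (-1.01, SE 0.69, 0.392).

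In the Notch split, whose groups differ in range between the time points as given above, 3 of 7 genes had a called interaction. It was -2.04 for ID1 (SE 0.24, edgeR adjusted p = 4.15e-04), and this call held in 9 of 9 alternatives (adjusted p between 4.62e-09 and 0.00967). ID2 had ratios of 1.55, 1.87 and 2.01 at 1 dpi and 0.37 and 1.41 at 4 dpi, with library 10 apart from the others (interaction -0.92, SE 0.23, 0.0356). Without library 10 it was -0.37 (0.468), without library 7 -0.88 (0.104) and without library 8 -0.82 (0.115), and with the score at 10000 UMIs -0.19 (0.617), in a range of 0.00260 to 0.767. SMAD7 had ratios of 1.52, 1.55 and 1.19 against 0.43 and 0.18 (interaction -1.12, SE 0.29, 0.0407), and its adjusted p without libraries 6, 7, 8, 10 and 11 was 0.0857, 0.119, 0.0558, 0.162 and 0.126, in a range of 0.0254 to 0.162 over all alternatives. BMP4 (0.58, 0.0698) was not called but was in 4 of 9 alternatives, among them without library 10 (0.90, 0.0358, in a range of 0.00383 to 0.363). ID3 (-1.77, 0.0678) was not called. For the cycling split 0 of 7 were called by edgeR or DESeq2, and 2 had an unadjusted p under 0.05 with edgeR, ID1 (0.00289) and BMP4 (0.0174), against 1 with DESeq2.

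The change with time was also computed within the groups, which was chosen after the data had been seen. Notch-high cells had 11.0, 13.3 and 9.04 list UMIs per 5000 at 1 dpi but 2.02 and 1.90 at 4 dpi. A change within the Notch-high group thus does not compare cells of the same range. In immediate early high cells ID1 fell by 2.32 on the log2 scale (edgeR adjusted p = 2.66e-07), and in low cells its change was -0.49 (0.138). In Notch-high cells ID1 fell by 2.36 (2.12e-07), and in Notch-low cells its change was -0.30 (0.273), with both 4 dpi libraries inside the range of 1 dpi or just under it. BMP4 rose in the high cells of either split, by 0.67 (0.00180) and 0.64 (0.00153), with 0.10 (0.646) and 0.08 (0.796) in the low cells. SKIL fell by 0.66 (0.00271) in immediate early high and by 0.71 (0.00396) in Notch-high cells, with -0.25 (0.282) and -0.21 (0.393) in low cells. SMAD7 was -1.05 (0.00515) in Notch-high and 0.12 (0.827) in Notch-low cells, and -0.62 (0.0860) and -0.64 (0.137) in immediate early high and low cells. ID2 had -0.48 (0.0311) in Notch-high and 0.44 (0.0642) in Notch-low cells, and -0.15 in immediate early high and -0.53 (0.0162) in low cells. TGFBI rose by 0.87 (0.0159) and 0.92 (0.0165) in high cells, with 0.42 (0.184) and 0.37 (0.329) in low cells. The interactions above are the tests of these differences, and those of SKIL and TGFBI were not called (edgeR adjusted p from 0.131 to 0.411). Also not called were those of BMP4 in the Notch split (0.0698) and of ID2 (0.197) and SMAD7 (0.988) in the immediate early split. In Notch-low cells 0 of 7 tested genes were called by edgeR, 2 had an unadjusted p under 0.05, and 12.5% of all genes were called, and DESeq2 was not run there.

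**Figure D4:**
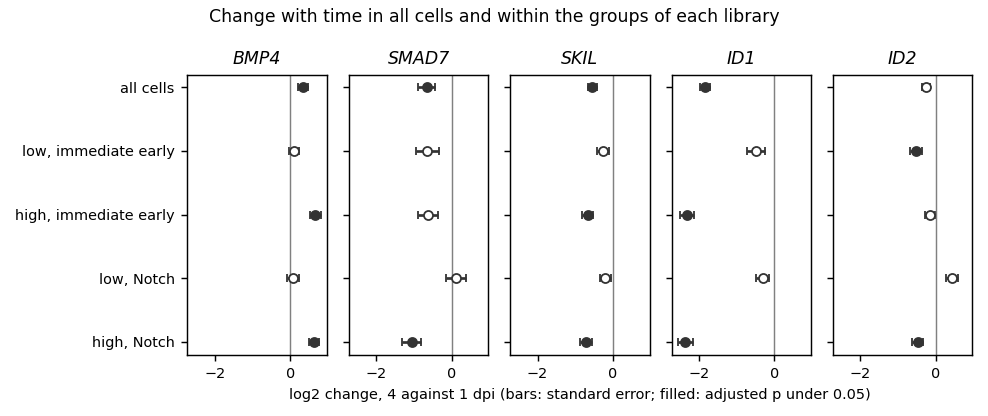
Log2 change between 1 and 4 dpi with its standard error (horizontal axis) for 5 genes in all cells and in the low and high groups of the immediate early and Notch splits, filled where the adjusted p is under 0.05. The ID1 change was -2.36 in Notch-high and -0.30 in Notch-low cells. Notch-high cells held fewer list UMIs at 4 dpi than at 1 dpi.

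Cells were then grouped by both splits together, again after the data had been seen and as a description with no test, in CPM of a group without TMM scaling. Cells low in both had ID1 at 74.2, 50.4 and 89.7 in libraries 6, 7 and 8 and at 64.0 and 57.2 in libraries 10 and 11, so that the time points overlapped. Cells high in both had 776, 646 and 394 at 1 dpi and 125 and 108 at 4 dpi, far apart. The Notch-high cells of the time points again differ in their range of list UMIs. In cells high in only 1 list, ID1 was between 77.7 and 394 at 1 dpi with the highest value, from 12 Notch-high cells of library 8, about equal to that of the cells high in both, and between 54.1 and 103 at 4 dpi. ID2 behaved otherwise at 4 dpi. Immediate early high, Notch-low cells had ID2 at 306 and 222 in libraries 10 and 11, and immediate early low, Notch-high cells had 75.9 and 62.1, close to the 62.6 and 58.6 of cells low in both. At 1 dpi those groups had 212, 201 and 84.5 against 179, 144 and 199, with no such order. The groups high in only 1 list held 12 to 44 cells each.

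**Figure D5:**
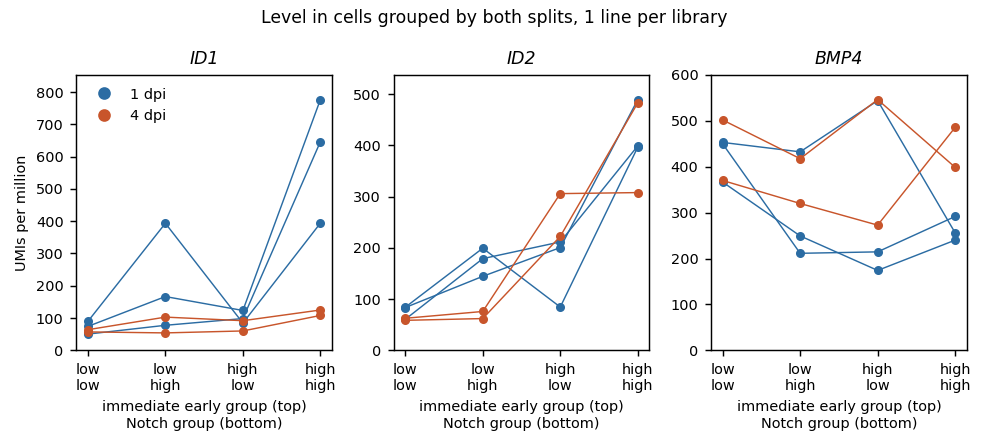
Level (CPM, linear axis from 0) of ID1, ID2 and BMP4 in cells grouped by both the immediate early and the Notch list, with 1 line per library, blue for 1 dpi and orange for 4 dpi. ID1 reached 776, 646 and 394 in the 1 dpi cells high in both and 125 and 108 in those of 4 dpi. Notch-high cells held fewer list UMIs at 4 dpi than at 1 dpi.

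The other pathway genes were looked at in the same splits, without the 9, and the genes named here were picked after their values had been seen. Of 12 tested TGF-beta targets 12 were higher in immediate early high cells, with a median log2 difference of 2.04, against 24.1% of all genes called higher. They ran from TSC22D1 (0.39, edgeR adjusted p = 0.00245) to the matrix protein gene THBS1 (3.71, 2.10e-04). Over all cells THBS1 was only at 5.62, 9.30, 4.62, 4.78 and 8.33 CPM in libraries 6, 7, 8, 10 and 11. Its low cells lay below that, so it may have passed the low-count filter only through the high cells. Which targets passed that way was not listed. The counts and medians of this list in the splits may carry that choice and are not used as results. TGFBI, a TGF-beta target left out here with the 9, was not called in this split (-0.15, 0.507). In the Notch split 8 of 13 targets without TGFBI were called, each higher (median 1.02), against 15.2% of all genes called higher. In the cycling split 1 was called higher and 8 of 12 lower (median -0.40), against 12.3% of all genes called higher and 9.26% lower. Many of these targets also answer to stimuli other than TGF-beta, and the list was not built to tell these apart. In the immediate early split medians were smaller in lists other than the TGF-beta targets: 0.59 for TGF-beta and activin ligands (2 of 4 higher, 1 lower), 0.45 for BMP targets (2 of 3 higher), 0.22 for intracellular regulators (6 of 13 higher, 1 lower), 0.11 for signal-transducing SMADs (1 of 5 higher) and 0.05 for receptors (3 of 11 higher, 1 lower). Of 3 bHLH partners of ID proteins the stem cell factor ASCL2 (-1.29 and -0.85) and the E protein TCF3 (-0.64 and -0.50) were lower in the immediate early and Notch high cells, where ID1, ID2 and ID3 were higher. Of all genes 23.5% and 12.6% were called lower in these splits. TCF12 was called in neither (0.27 and 0.08, edgeR adjusted p = 0.164 and 0.718).

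Across single cells, Spearman correlations were taken within each library after thinning to 10000 UMIs, for the 4 genes found in at least 30% of these cells, as a description of cells that share a plate. The mean over the 5 libraries was 0.244 for ID1 with ID2, 0.216 for ID2 with SKIL and 0.144 for ID1 with SKIL. For ID1 with ID2 it was 0.444, 0.325 and 0.342 in libraries 6, 7 and 8 and 0.0285 and 0.0836 at 4 dpi, so that the pair was tied at 1 dpi and hardly at 4 dpi. For ID1 with SKIL it was 0.260, 0.277 and 0.193 against -0.0612 and 0.0514. BMP4 was not tied to the other 3, with means of 0.0123 to ID1, -0.0662 to ID2 and 0.00588 to SKIL. The remaining 30 of 36 pairs involve a gene found in fewer cells, where a low correlation says little. Of these, the pairs with a mean above 0.140, a limit set after the values had been seen, were SMAD7 with SKIL (0.175), ID1 with ID3 (0.170), ID2 with SMAD7 (0.164), SMAD7 with BMP4 (0.146) and ID1 with SMAD7 (0.141), each positive in 5 of 5 libraries.

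The genes closest to each of these 4 were taken from 6332 others found in at least 20% of the cells. ID1 was closest to EGR1 (mean rho 0.322), HES1 (0.317), JUNB (0.304), NRARP (0.292) and CCNL1 (0.288), while 95% of genes were under 0.119. ID2 was closest to HES1 (0.492), GADD45B (0.472), RSRC2 (0.468), GADD45A (0.466) and CCNL1 (0.462), with 95% of genes under 0.225. SKIL was closest to TIPARP (0.377), KLF10 (0.357), RSRC2 (0.340), HES1 (0.337) and CCNL1 (0.337), with 95% under 0.172. EGR1 and JUNB are immediate early genes and HES1 and NRARP Notch effectors of the lists above, so these ranks and the splits rest on the same counts. BMP4 had other neighbours: SP5 (0.332), BAMBI (0.327), APCDD1 (0.316), SLC2A1 (0.313) and SOX4 (0.294), with 95% of genes under 0.110. SP5 and APCDD1 are known as Wnt targets, BAMBI is a decoy receptor of the BMP and TGF-beta pathways, and SLC2A1 is the glucose transporter GLUT1. HES1 reached 0.595 with ID2 in 1 library and was at least 0.399 in each, while its correlation with ID1 ran from 0.0223 to 0.512.

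These values have limits. They are RNA counts of 1 cell line, with 3 plates at 1 dpi and 2 at 4 dpi, and say nothing of protein or of SMAD phosphorylation. SMAD6 and ID4 had few UMIs and were tested in the splits only without the low-count filter, and ID3 was found in few cells. In each split ID3 passed that filter only through the high cells, where it was high. The groups of cells were made from the same counts in which BMP4, SMAD7, SKIL, TGFBI and the ID genes were then compared. The immediate early and Notch lists overlap in the cells they mark, and their parts in the ID1 level were not tested apart from each other.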

How the data were processed

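The UMI counts per gene and well were used as deposited: by the submitters' processing notes, read 2 was mapped with BWA to the human transcriptome of hg38 and unique barcodes were counted, with versions of BWA and of the annotation not given in the sources used here. Counts of 5 plates of 384 wells were read with 0 columns unused, and 0 values were not whole numbers. The 9 genes and all gene lists were chosen with earlier results of these data known. Wells with over 2000 genes and under 25% mitochondrial UMIs were kept as cells (1094 wells did not pass), no doublet caller was run, and spike-ins and genes not listed in every library were left out (15323 listed genes with spike-ins, 15028 human genes kept).

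UMIs were summed per library and tested between 1 and 4 dpi with edgeR 4.0.16 (TMM, filterByExpr, quasi-likelihood F test, Benjamini-Hochberg over all genes tested, limit 0.05), and DESeq2 1.42.0 was the other tool. Between the time points the low-count filter needed 2.09 CPM in the smaller group's number of libraries. In the splits, whose groups of cells hold fewer UMIs, its limit in CPM was higher. For the splits, cells were thinned to 5000 UMIs, scored by the summed UMIs of a list, divided at the library's median, and their full counts summed per library and group, with the library as a block, and the interaction with time was tested in the same design. The lists were cycling genes, immediate early genes and Notch effectors, and the pathway lists were BMP ligands, TGF-beta and activin ligands, receptors and co-receptors, signal-transducing SMADs, extracellular antagonists and latency proteins, intracellular regulators, TGF-beta targets, BMP targets and bHLH partners of ID proteins. Correlations are Spearman rho within a library after thinning to 10000 UMIs.

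The genes named are the 9, the receptors and SMADs, every pathway gene called with a log2 change of at least 1, the highest and lowest of each list, and the 5 genes closest in correlation to each of the 9 found in at least 30% of cells. Not every gene that meets this rule is named. Genes named in the splits beyond these were picked after their values had been seen. The alternatives were DESeq2, no low-count filter, other limits on genes and mitochondrial share, thinned cells, flow cell as a term (the libraries were on 2 flow cells), genes of any library, cells of low or high cycling score, cells without HES5, scoring at 10000 UMIs, and each library left out. The change with time within the split groups, all alternatives of the interactions, the grouping by both splits and the CCAAT and TATAAA motifs were chosen after the data had been seen. The edgeR fits of time, split and interaction were tested on simulated counts with known differences and with groups set in advance. Thinning, the scoring and dividing of cells, the correlations and the motif search were not tested in this way. Promoters were taken from RefSeq on GRCh38.p14. Other versions were limma 3.58.1, Matrix 1.6.5, R 4.3.3, Python 3.11.15 and matplotlib 3.10.9, and tables were read with the R package data.table, version 1.17.8.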

Additional observations from a re-analysis of the deposited data

Results flagged for a closer look

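For each of the 9 genes with a test in a split, the log2 ratios of the 5 libraries were searched for 1 value far from the rest, a search that by chance alone marks about 1 in 20 groups, and 1 of 21 was marked. This was ID3 in the cycling split, where library 10 had a ratio of 2.08 and the others lay between 0.22 and 0.76, and the gap made up 0.711 of the range.

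Of all genes the interaction called 10.6% in the immediate early, 3.51% in the Notch and 0.182% in the cycling split. Of 21 interactions of a split with time, 5 were called, and for these the value of the split alone does not describe both time points. They were ID1 in the immediate early split (-1.87 on the log2 scale), BMP4 in the same split (0.56), and ID1 (-2.04), ID2 (-0.92) and SMAD7 (-1.12) in the Notch split.

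Wells with under 200 genes were not analysed, and genes of the 9 with more than 3 UMIs in them are named here, 3 being the highest mean that an observed count of 0 leaves room for. ID1 had 6, ID2 had 10, BMP4 had 29 and SKIL had 4.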

How the results depend on the processing

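Each result was recomputed under the alternatives, and a count of genes is named here if it moved by more than 1.5-fold. The 3484 genes that changed with time became 1136 with thinned cells, 1470 in cycling-low cells, 2215 in cycling-high cells, 1863 in cells without HES5 and 1411 in Notch-low cells, and lay between 2352 and 2940 with 1 library left out. The cycling split went from 2372 genes to 1269 with DESeq2 and 737 with thinned cells (1501 to 2057 with 1 library left out), and its interaction with time from 20 to 62 without the filter, 88 with the score at 10000 UMIs and 33 with thinned cells (9 to 39). The immediate early split went from 5189 to 2203 with thinned cells (4147 to 4960), and its interaction from 1153 to 307 with DESeq2 and 182 with thinned cells (363 to 941). The Notch split went from 3072 to 2026 with DESeq2 and 1021 with thinned cells (1330 to 4013), and its interaction from 388 to 109 with DESeq2, 205 with the score at 10000 UMIs and 93 with thinned cells (56 to 344).

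The sign of a change with time turned in these cases. ID2 had 0.0217 under a mitochondrial maximum of 15%, 0.34 in cells without HES5 and 0.44 in Notch-low cells. ID3 had 0.69 in cells without HES5, 0.51 in immediate early low cells and 1.01 in Notch-low cells, and SMAD7 had 0.12 in Notch-low cells. In immediate early low cells INHBE had -0.13, SMAD1 0.0356, SMAD3 0.0368 and TCF12 0.11, and TCF12 had 0.10 in Notch-low cells. SMAD2 had 0.0063 under a mitochondrial maximum of 15%, 0.20 with thinned cells, 0.17 in cycling-low cells and 0.0715 in immediate early high cells, and lay between -0.0600 and 0.0479 with 1 library left out. In the cycling split ID1 had -0.0812 with the score at 10000 UMIs and -0.0183 with thinned cells, and ID2 lay between -0.18 and 0.0047 with 1 library left out.

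Counted only for genes with a call to lose, 123 recomputed changes with time of 6 of the 9 genes kept it in 87 cases, lost it in 35 and turned sign in 1, and 322 of 16 other pathway genes kept it in 247, lost it in 72 and turned sign in 3. ID4, TCF4 and LTBP2, whose calls carry the choice of genes tested, are among them. In the splits 53 of 53 values kept their call for the immediate early list, 46 of 52 for the Notch list and 7 of 17 for the cycling list (ID3 in 1 of 8 and SMAD7 in 6 of 9). All of these counts include ID3, whose calls carry that choice too. Of 44 interactions 30 kept theirs. Of 24 correlations 22 moved little, and at 4 dpi alone ID1 with ID2 was 0.0560 and ID1 with SKIL -0.00491. No paired analysis was possible because the libraries of the time points share no replicate numbers. Each of the 2 flow cells held both time points, and with flow cell as a term 3589 genes changed with time. The cause of these differences was not tested.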
